A study of Mus musculus with 40 samples.

Results

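The kidney 72 h after ischaemia-reperfusion injury (IRI), in which renal blood flow is stopped and then restored, was set against kidney without surgery. The members were the 8 RNA-seq libraries of these groups, chosen by their labels and table columns, of 40 samples in the series. The IRI 72 h group held 4 libraries of kidney from C57bl/6-wt mice, labelled with the treatment IRI and collected 72 h after reperfusion. The Control group held 4 libraries of kidney from C57bl/6-wt mice with no treatment given. A separate set of 4 libraries, labelled sham_control and as control without surgery, served as an alternative to Control. The IRI 24 h and IRI 48 h groups, with the same strain and treatment and 4 libraries each, were used to place the 72 h values in time. The study's title and design text concern human mesenchymal stromal cells as a treatment of this injury. A protocol text shared by all samples mentions their injection, but none of the groups used here carries the label of a cell source. Sex, age, the length of ischaemia and whether 1 or both kidneys were clamped are not given in the sources used here. No sham surgery at 72 h was analysed here, so surgery and ischaemia cannot be told apart. The labels do not say that the replicates came from separate animals, so each p-value reflects variation among libraries that may be technical. In the main fit this variation was estimated over 5 groups of 4 libraries, Control and IRI 6, 24, 48 and 72 h.

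The tubule is the main target of renal ischaemia. The proximal tubule, with its S1, S2 and S3 segments, reabsorbs most of the filtered salt, phosphate, glucose, amino acids and protein, and it runs largely on mitochondrial fatty acid oxidation. After injury, surviving tubule cells lose transporters, switch on keratins and other repair genes and divide, while leukocytes enter and fibroblasts lay down matrix.

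The libraries differed in more than their groups. Over the names analysed, IRI 72 h libraries held 4642943 to 5368674 counts and Control libraries 14950303 to 16352005. Between 15619 and 16427 names were detected in IRI 72 h libraries and between 20996 and 21877 in Control libraries. Names with exactly 1 count numbered 215 to 254 in an IRI 72 h library and 1547 to 1985 in a Control library, whereas names with 8 to 14 counts numbered 1138 to 1491 and 1342 to 1435. Replicates correlated at r = 0.794 to 0.822 among IRI 72 h libraries and 0.987 to 0.991 among Control libraries on the log2 scale, a description across genes. For genes of 100 to 500 CPM (counts scaled to the library total, with TMM factors), the median coefficient of variation was 14.5% at 72 h and 5.78% in Control. The 10 most abundant names among those analysed made up 25.8 to 29.3% of the analysed counts at 72 h and 7.90 to 8.81% in Control. The 48 h libraries had the low-count structure of the 72 h ones, with 222 to 354 names at 1 count and 16173 to 18217 names detected, and the 24 h libraries that of Control, with 1956 to 2412 and 21445 to 23150. Control and the times from 24 h on also stood in different joined blocks of the deposited table. The part of these differences in the results was not tested.

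Adrenal genes marked some libraries. Star, the cholesterol importer of steroid-producing cells, was at 7.22, 193, 6.804 and 169 CPM in IRI 72 h libraries 1 to 4 and at 81.5, 8.79, 5.12 and 76.1 CPM in Control libraries 1 to 4. Chga, a protein of chromaffin granules, was at 10.5, 408, 3.002 and 402 CPM in IRI 72 h libraries and at 13.3, 0.141, 0.0692 and 12.9 CPM in Control libraries. Both were high in IRI 72 h libraries 2 and 4 and in Control libraries 1 and 4, and 1 sham_control library was likewise the highest of its group in both. The summed level of the 8 adrenal genes tested ran from 35.4 to 1207 CPM at 72 h, from 8.02 to 293 CPM in Control and from 8.69 to 811 CPM in sham_control. Counts of 4 or more list members are given below without IRI 72 h libraries 2 and 4 and Control libraries 1 and 4 where that moves them by 1.5 times or more. Of other tissues the pieces could hold, 0 of 6 liver and pancreas genes, 0 of 9 adipocyte genes and 0 of 7 erythrocyte genes tested were higher at 72 h than in Control. In these lists 3, 4 and 2 genes were lower. Of 7 muscle genes 5 were higher and 0 lower. Among all genes tested 26.7% were higher and 29.6% lower. Of the 9 adipocyte genes, 7 were lower against sham_control and 8 against 24 h, with 0 higher in either, beside 27.7% and 18.3% lower among all genes tested.

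**Figure D1:**
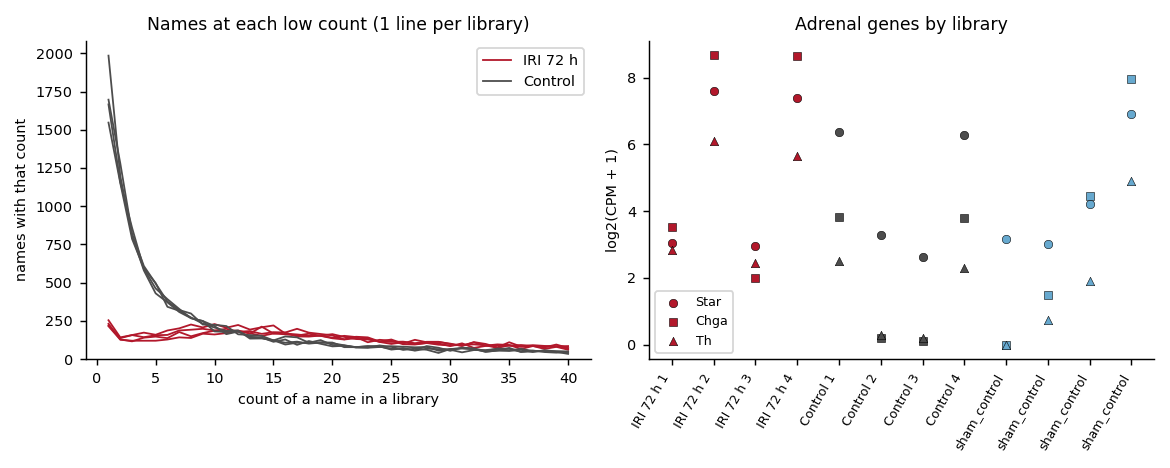
Left, the number of names (y axis) at each count from 1 to 40 (x axis) with 1 line per library, where Control lines fall from at least 1547 names at 1 count and IRI 72 h lines stay between 116 and 254 names up to 20 counts. Right, log2(CPM + 1) of Star, Chga and Th (y axis) in each library of IRI 72 h, Control and sham_control (x axis), where IRI 72 h libraries 2 and 4, Control libraries 1 and 4 and 1 sham_control library stand highest in their groups.

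Genes were tested for a difference between 72 h and Control with edgeR's quasi-likelihood test, with a threshold of 0.05 on the Benjamini-Hochberg adjusted p. All adjusted p-values below come from this test unless another is named. Of 16654 genes tested, 9374 were called (56.3%), with 4448 higher at 72 h (26.7%) and 4926 lower (29.6%). At least 2-fold changes made up 3584 of the higher and 3616 of the lower calls, and at least 8-fold changes 1378 and 893. The median log2 fold change (log2FC) over all genes tested was -0.04. Against the sham_control libraries, 8676 of 18445 genes were called (47%), 3564 higher (19.3%) and 5112 lower (27.7%). Of the genes tested against Control, 2745 were called higher (16.5%) and 3563 lower (21.4%) against both sets, and 174 in opposite directions (1.04%), with the 72 h libraries shared between these comparisons. With a spread of its own for each group in limma, 8665 genes were called (52%), 3706 higher (22.3%) and 4959 lower (29.8%). In bulk kidney, fewer cells of a type and less RNA per cell cannot be told apart, which bears on every cell-type gene below. Counts of list members called against Control are to be read beside the shares of all genes tested, 26.7% higher and 29.6% lower, and several lists lie near these. Means below are given with the SD over 4 libraries and log2FC with the SE.

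**Figure D2:**
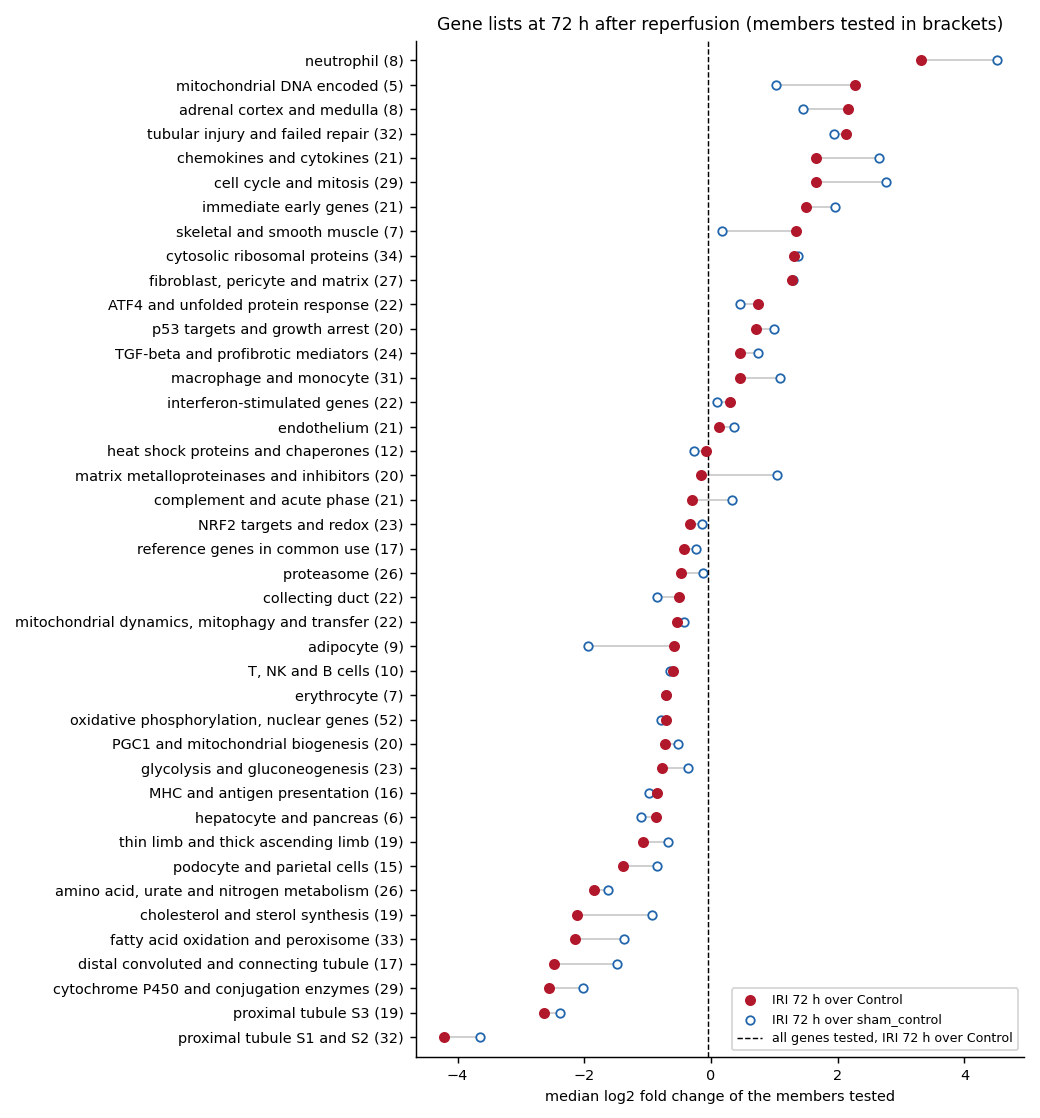
Median log2 fold change of the members tested (x axis) in each gene list (rows, members tested in brackets), for IRI 72 h over Control (filled red) and over sham_control (open blue). The dashed line is the median of all genes tested against Control, -0.04, and the proximal tubule S1 and S2 list lies lowest at -4.21 against Control.

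Transport genes of the early proximal tubule were lower at 72 h throughout the list. All 32 tested S1 and S2 genes of 32 listed fell against Control, with a median log2FC of -4.21, and all 32 were also lower against sham_control, with a median of -3.64. Their summed level was 3090.2 to 3292 CPM in IRI 72 h libraries and 29740.0 to 36577 CPM in Control libraries. Slc5a2, the glucose cotransporter SGLT2 of the early segment, stood at 1.75, 5.13, 2.802 and 2.59 CPM in IRI 72 h libraries, against 264, 349.9, 371 and 282 CPM in Control libraries. No IRI 72 h library came near a Control library, and the log2FC was -6.67 ± 0.58 (SE, adjusted p = 2.0e-09). Lrp2, which encodes the endocytic receptor megalin, had 44.9, 18.5, 19.2 and 32.5 CPM at 72 h, against 1889, 2049, 2412 and 1934 CPM in Control (log2FC -6.17 ± 0.48, adjusted p = 3.1e-10). Cubn, the partner receptor cubilin, averaged 7.81 ± 3.92 CPM at 72 h and 429 ± 44.2 CPM in Control (SD, n = 4 each), a log2FC of -5.79 ± 0.56. Slc4a4, the basolateral sodium bicarbonate cotransporter, averaged 31.4 ± 4.39 and 1278 ± 109 CPM (SD, n = 4 each), with a log2FC of -5.35 ± 0.26 (adjusted p = 2.1e-13). For these 4 genes the IRI 72 h and Control ranges did not overlap, as for 51.9% of all genes tested.

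A transcription factor of the proximal tubule was lower as well. Hnf4a, which drives the maturation of proximal tubule cells, stood at 40.04, 29.7, 58.8 and 54.8 CPM at 72 h, against 947, 1112, 1172 and 965 CPM in Control (log2FC -4.52 ± 0.33, adjusted p = 1.2e-10). The letters GTTAAT are a motif of promoters active in liver and kidney epithelium. In RefSeq promoter windows of the GRCm38.p6 assembly (250 bases before to 50 after the start, matched by symbol), GTTAAT stood on either strand in 11 of 41 S1, S2 and S3 genes with a window (26.8%). The share was 6.12% among 11839 genes tested with a window and 8.24% of 27025 symbols in the table. The following windows of the 250 bases before the start are shown because they hold these letters and their genes fell with a log2FC below -4, with GTTAAT or its reverse complement in capitals. They belong to the phosphate transporter gene Slc34a1 (chr13:55399398-55399647, plus strand), the glucose-6-phosphatase gene G6pc (chr11:101367466-101367715, plus strand) and Hnf4a itself (its other RefSeq start, whose window holds 0 matches, is not shown; chr2:163546905-163547154, plus strand).
Slc34a1: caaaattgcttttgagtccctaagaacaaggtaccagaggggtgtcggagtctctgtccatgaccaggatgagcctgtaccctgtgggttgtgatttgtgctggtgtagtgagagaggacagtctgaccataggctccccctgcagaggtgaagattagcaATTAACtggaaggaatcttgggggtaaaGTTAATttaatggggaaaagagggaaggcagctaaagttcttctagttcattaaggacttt
G6pc: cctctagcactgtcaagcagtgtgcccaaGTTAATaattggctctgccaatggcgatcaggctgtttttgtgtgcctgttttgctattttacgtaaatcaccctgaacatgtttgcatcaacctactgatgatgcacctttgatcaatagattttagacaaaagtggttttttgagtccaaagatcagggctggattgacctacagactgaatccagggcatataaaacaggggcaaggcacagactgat
Hnf4a: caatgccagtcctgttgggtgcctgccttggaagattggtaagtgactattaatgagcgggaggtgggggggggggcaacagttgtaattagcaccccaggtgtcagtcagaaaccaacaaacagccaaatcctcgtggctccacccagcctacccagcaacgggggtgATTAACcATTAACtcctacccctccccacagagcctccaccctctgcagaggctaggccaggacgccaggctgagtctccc
The windows of Slc34a1 and Hnf4a hold 2 matches each and that of G6pc 1. The match is a description of letters, and no binding was measured. Slc34a1 was at 239, 206, 227 and 165 CPM at 72 h, against 4828, 5787, 6153 and 5064 CPM in Control, and G6pc at 7.88, 14.97, 7.404 and 23.3 CPM, against 372, 407, 462 and 382 CPM.

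In the late proximal tubule, 18 of 19 tested S3 genes of 20 listed fell, with a median log2FC of -2.63, and 18 were lower against sham_control. Cyp4b1, a P450 enzyme of this segment, stood at 66.5, 98.6, 68.8 and 47.5 CPM at 72 h, against 3242, 3582, 3784 and 3351 CPM in Control (log2FC -5.63 ± 0.32, adjusted p = 2.0e-12). Slc27a2, a fatty acid transporter and acyl-CoA synthetase, averaged 360.1 ± 16.96 and 5144 ± 327 CPM (SD, n = 4 each), a log2FC of -3.84 ± 0.23. Slc5a8, which carries lactate and butyrate with sodium, averaged 14.4 ± 4.93 and 413 ± 17.4 CPM (log2FC -4.85 ± 0.401). Slc7a13, the S3 cystine and acidic amino acid carrier, was at 99.6, 88.8, 63.04 and 101 CPM at 72 h, against 1098, 1230.5, 1217 and 1055 CPM in Control (log2FC -3.71 ± 0.34, adjusted p = 4.1e-09). Between 24 and 72 h, 9 of 19 S3 genes were higher and 3 lower, while 3 of 32 S1 and S2 genes were higher and 21 lower, beside 12.4% higher and 18.3% lower among all genes tested. Slc7a13 averaged 88.1 ± 17.6 CPM at 72 h and 29.4 ± 5.71 CPM at 24 h (log2FC 1.58 ± 0.32, adjusted p = 6.5e-04). Slc22a13, an organic anion transporter, averaged 10.7 ± 2.81 CPM at 72 h and 2.18 ± 0.469 CPM at 24 h (log2FC 2.31 ± 0.47), with 121 ± 6.495 CPM in Control. Cyp4b1 was lower instead, averaging 70.4 ± 21.1 CPM at 72 h, against 453 ± 151 CPM at 24 h (log2FC -2.69 ± 0.28). The difference between the segments was not tested.

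**Figure D3:**
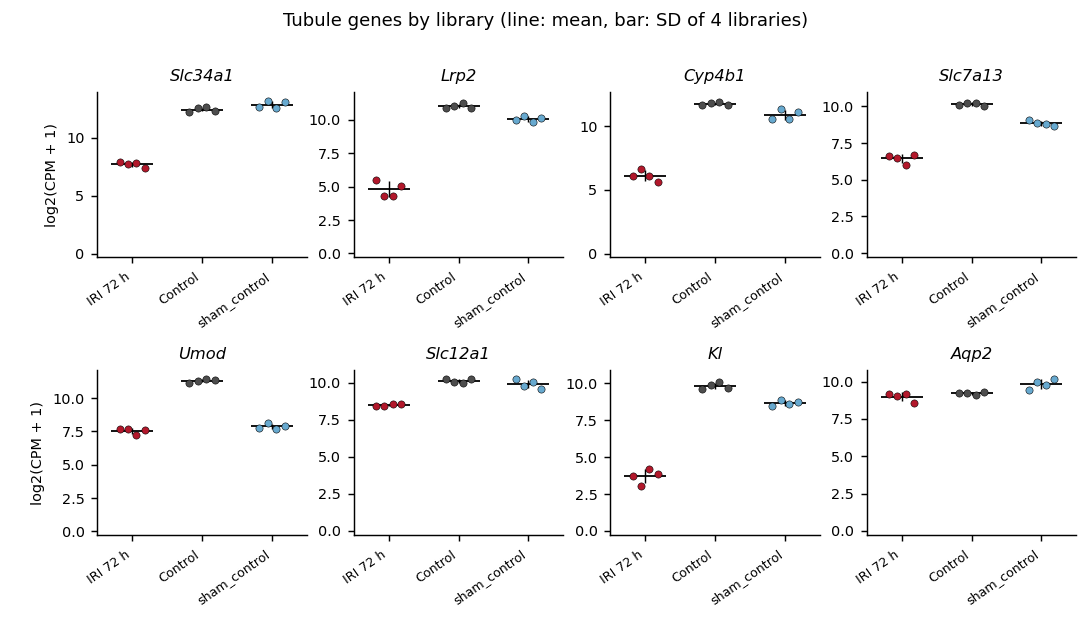
Log2(CPM + 1) (y axis) of 8 tubule genes in each of 4 libraries of IRI 72 h, Control and sham_control (x axis), with the mean as a line and the SD as a bar. Slc34a1, Lrp2, Cyp4b1, Slc7a13 and Kl lie far lower at 72 h than in both other groups, Umod is near sham_control, and Aqp2 overlaps Control.

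Along the rest of the nephron the changes were mixed. In the thin limb and thick ascending limb, 10 of 19 genes fell and 2 rose (median log2FC -1.08, and -0.69 against sham_control). Egf, the epidermal growth factor made in the ascending limb and distal tubule, was at 37.2, 39.4, 25.6 and 59.8 CPM at 72 h, against 1094, 1125, 1378 and 1136 CPM in Control (log2FC -4.87 ± 0.302, adjusted p = 9.5e-12). Slc12a1, the sodium-potassium-chloride cotransporter NKCC2, averaged 363 ± 23.1 and 1122 ± 111 CPM (log2FC -1.63 ± 0.29, adjusted p = 5.7e-05). Aqp1, the water channel of proximal tubule and thin descending limb, averaged 282 ± 34.8 and 1267 ± 67.5 CPM (log2FC -2.17 ± 0.28), and the log2FC against sham_control was -1.096 ± 0.25. Umod, which encodes uromodulin, had 205, 207, 148 and 195 CPM at 72 h and 2293, 2514, 2704 and 2582 CPM in Control, but 213, 281, 203 and 239.5 CPM in sham_control. The 72 h libraries therefore lay below the Control libraries (log2FC -3.74 ± 0.22, adjusted p = 3.7e-12) and overlapped the sham_control libraries (log2FC -0.31 ± 0.19, adjusted p = 0.19).

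Distal convoluted and connecting tubule genes fell in 14 of 17 cases, with 1 rise and a median log2FC of -2.47 (-1.48 against sham_control). Kl, the co-receptor klotho for the phosphate hormone FGF23, was at 12.3, 7.38, 17.6 and 13.4 CPM at 72 h, against 779, 941, 1075 and 811 CPM in Control (log2FC -6.15 ± 0.35, adjusted p = 2.0e-12). Slc12a3, the thiazide-sensitive sodium-chloride cotransporter, was at 38.5, 8.201, 27.02 and 31.8 CPM, against 266, 315, 329 and 289.8 CPM (log2FC -3.51 ± 0.44, adjusted p = 5.0e-07). Calb1, the calcium buffer calbindin, averaged 18.7 ± 5.22 and 299.9 ± 29.2 CPM (log2FC -4.002 ± 0.37). Pvalb, the buffer parvalbumin of the early distal tubule, had 0 counts in each IRI 72 h library and 405, 374, 373 and 319 counts in Control libraries. Against a floor of 3 counts over the 72 h group, which covers counting error only, Pvalb was at least 156-fold lower than in Control and at least 39.97-fold lower than in sham_control.

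In the collecting duct, 9 of 22 tested genes of 24 listed fell and 4 rose, and without the 4 libraries with adrenal genes 6 fell. Against sham_control 14 were lower. Aqp2, the vasopressin-regulated water channel, was at 583, 528, 569 and 374 CPM at 72 h and 608, 593, 542 and 623 CPM in Control, ranges that overlap (log2FC -0.204 ± 0.19, adjusted p = 0.36). Against sham_control it was lower (log2FC -0.87 ± 0.19, adjusted p = 5.7e-04). Aqp3, the basolateral water channel, fell, with 25.2 ± 7.66 and 139.9 ± 6.798 CPM (log2FC -2.48 ± 0.25, adjusted p = 1.4e-08). Slc4a1, the anion exchanger of type A intercalated cells and of erythrocytes, had 0 counts in each IRI 72 h library and 689, 773, 772 and 684 counts in Control libraries, at least 310.6-fold lower than Control and at least 197.4-fold lower than sham_control on the same floor. Of 7 erythrocyte genes 2 were lower, with a summed level of 300.0 to 415 CPM at 72 h and 536 to 728 CPM in Control, and their part in the fall of Slc4a1 was not tested. Krt18, a keratin of simple epithelia, rose, at 643, 533, 708 and 514 CPM at 72 h, against 31.2, 31.6, 31.9 and 31.1 CPM in Control (log2FC 4.25 ± 0.26, adjusted p = 8.2e-12).

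In the glomerulus, 8 of 15 podocyte and parietal cell genes tested of 17 listed fell and 1 rose. Col4a3, a basement membrane collagen made by podocytes, averaged 52.6 ± 3.87 and 252 ± 17.1 CPM (log2FC -2.26 ± 0.18, adjusted p = 6.6e-10), and Podxl, the surface mucin podocalyxin, 52.8 ± 15.7 and 228 ± 17.7 CPM (log2FC -2.11 ± 0.24). Endothelial genes divided, with 9 of 21 tested of 24 listed higher and 3 lower (median log2FC 0.13, and 0.37 against sham_control). Sox17, a transcription factor of arterial endothelium, was at 103, 181, 111 and 176 CPM at 72 h, against 7.58, 7.67, 6.98 and 9.56 CPM in Control (log2FC 4.16 ± 0.25, adjusted p = 5.9e-12). Nos3, the endothelial nitric oxide synthase, averaged 80.1 ± 19.8 and 7.796 ± 0.408 CPM (log2FC 3.36 ± 0.37), and Egfl7, a secreted endothelial factor, 208 ± 23.4 and 32.1 ± 3.33 CPM (log2FC 2.699 ± 0.19). Pecam1, the general endothelial marker CD31, was at 92.996, 81.2, 90.9 and 79.99 CPM at 72 h and 83.1, 82.3, 85.4 and 79.8 CPM in Control, with a log2FC of 0.06 ± 0.22 (adjusted p = 0.83). Vwf, the adhesive factor of endothelial granules, rose against Control (log2FC 2.02 ± 0.34, adjusted p = 2.8e-05) and did not pass against sham_control (log2FC 0.56 ± 0.31, adjusted p = 0.14). The higher genes included endothelial regulators, while the panendothelial marker did not pass the test.

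Genes of energy metabolism were lower at 72 h in several pathways. Of 33 tested genes of 34 listed for fatty acid oxidation and peroxisomes, 29 fell and 1 rose, with a median log2FC of -2.15 (-1.96 with genes at 0 counts set to their bound) and of -1.37 against sham_control. Acsm2, a medium-chain acyl-CoA synthetase of the proximal tubule, was at 196, 255, 258 and 233 CPM at 72 h, against 5489, 6236, 6358 and 5306 CPM in Control (log2FC -4.63 ± 0.24, adjusted p = 5.4e-13). Cpt1a, which admits long-chain fatty acids to mitochondria, averaged 131 ± 32.6 and 509 ± 46.6 CPM (log2FC -1.96 ± 0.22, and -1.004 ± 0.199 against sham_control), and Cat, the peroxisomal catalase, 173 ± 12.4 and 1238 ± 101 CPM (log2FC -2.84 ± 0.19). Nuclear genes of oxidative phosphorylation fell in 44 of 52 cases, with 1 rise and a smaller median log2FC of -0.71. Sdha, the flavoprotein of complex II, was at 137, 196, 129 and 159 CPM at 72 h, against 956, 1002, 1047 and 919 CPM in Control (log2FC -2.66 ± 0.17, adjusted p = 1.7e-11), and 409 ± 79.2 CPM in sham_control (log2FC -1.39 ± 0.17). Atp5a1, a subunit gene of the ATP synthase, averaged 581 ± 43.2 and 2840.0 ± 153 CPM (log2FC -2.29 ± 0.12). For both, the fall was smaller by over 1.5 times on the log2 scale when measured against sham_control.

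Of 20 genes of PGC1 and mitochondrial biogenesis, 10 fell and 3 rose, and without the libraries with adrenal genes 11 fell and 1 rose. Against sham_control 6 were lower and 3 higher. Ppargc1a, the coactivator PGC-1alpha named in the study's title, averaged 14.1 ± 3.31 and 75.7 ± 1.79 CPM (log2FC -2.42 ± 0.25, adjusted p = 2.0e-08). Ppara, the nuclear receptor of fatty acid oxidation, averaged 6.46 ± 4.49 CPM at 72 h, 48.2 ± 5.78 CPM in Control (adjusted p = 2.3e-04) and 11.5 ± 2.73 CPM in sham_control (adjusted p = 0.21). Tfam, the mitochondrial DNA packaging and transcription factor, was likewise lower against Control (log2FC -1.19 ± 0.26, adjusted p = 4.6e-04) and did not pass against sham_control (log2FC -0.54 ± 0.24, adjusted p = 0.068). Of the mitochondrial DNA names, 10 of 15 were left out or not tested, and 4 of the 5 tested rose. The mitochondrial ribosomal RNA mt-Rnr1 averaged 13550.0 ± 821 CPM at 72 h and 832 ± 66.9 CPM in Control (log2FC 4.03 ± 0.19). For mt-Rnr2 the averages were 18477 ± 354 and 1309.8 ± 69.97 CPM (log2FC 3.82 ± 0.31). Ribosomal RNA is usually removed or avoided when libraries are made, the labels do not say how, and its part in these values was not tested. Trak2, an adaptor that loads mitochondria onto motor proteins, rose to 835 ± 85.5 CPM at 72 h, against 246 ± 17.6 CPM in Control (log2FC 1.76 ± 0.24, adjusted p = 1.4e-06) and 115 ± 9.76 CPM at 24 h. In its list of mitochondrial dynamics, mitophagy and transfer, 5 of 22 genes tested of 25 rose and 11 fell, and the connexin-43 gene Gja1 of the study's title was left out for disagreeing Control counts.

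Gluconeogenic enzymes were among 12 of 23 glycolysis and gluconeogenesis genes that fell, with 2 rises. Beside G6pc (log2FC -4.93 ± 0.29, adjusted p = 3.2e-12), Pcx, the pyruvate carboxylase, averaged 46.3 ± 15.7 and 871 ± 105 CPM (log2FC -4.23 ± 0.36), and Fbp1, the fructose bisphosphatase, 225 ± 30.1 and 1226 ± 123 CPM (log2FC -2.45 ± 0.19). In amino acid and nitrogen metabolism 21 of 26 genes fell and 2 rose. They included Gatm, the first enzyme of creatine synthesis (log2FC -4.23 ± 0.37), and Ass1 of arginine synthesis (log2FC -3.66 ± 0.22). P450 and conjugation enzymes fell in 23 of 29 cases, with 3 rises (median log2FC -2.55). Cyp2d26 had 17, 0, 13 and 0 counts in IRI 72 h libraries and 2401, 2247, 2588 and 2412 counts in Control libraries (log2FC -6.67 ± 0.66, adjusted p = 1.4e-08).

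Sterol synthesis depended on the libraries used as uninjured kidney. Against Control, 15 of 19 genes fell and 1 rose (median log2FC -2.11), and against sham_control 12 fell (median -0.93). Cyp51, the lanosterol demethylase, was at 55.8, 45.7, 51.4 and 31.5 CPM at 72 h, 393, 431, 460.4 and 372 CPM in Control and 142, 135, 129 and 114 CPM in sham_control. Its log2FC was -3.17 ± 0.23 against Control and -1.49 ± 0.203 against sham_control (adjusted p = 1.1e-10 and 1.1e-06). Idi1, the isopentenyl diphosphate isomerase, averaged 8.74 ± 6.63 CPM at 72 h, 53.8 ± 1.44 CPM in Control (adjusted p = 1.6e-05) and 6.23 ± 1.63 CPM in sham_control (adjusted p = 0.34), so that its sign turned.

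Genes of tubular injury and failed repair were mostly higher. Of 32 tested genes of 36 listed, 27 rose and 2 fell against Control (median log2FC 2.14), and 28 were higher against sham_control. The widely used injury markers Havcr1 (KIM-1) and Lcn2 (NGAL) were left out because their Control counts disagreed between deposited tables. S100a6, a calcium-binding protein of proliferating cells, was at 1637, 1337, 1720.2 and 1149 CPM at 72 h, against 70.9, 48.8, 41.5 and 59.7 CPM in Control (log2FC 4.73 ± 0.29, adjusted p = 1.0e-11). Timp1, an inhibitor of matrix metalloproteinases, was at 85.99, 99.4, 137 and 115 CPM, against 4.33, 2.67, 1.11 and 5.23 CPM (log2FC 5.03 ± 0.46, adjusted p = 3.5e-09). Krt19, a keratin of ducts and progenitor-like epithelia, averaged 272 ± 58.8 and 15.3 ± 2.22 CPM (log2FC 4.15 ± 0.35). Sox9, a transcription factor of repairing tubule cells, averaged 22.9 ± 9.54 and 1.49 ± 0.364 CPM (log2FC 3.93 ± 0.296), and Sox4, a factor of developing and injured epithelia, 405 ± 88.7 and 25.9 ± 2.74 CPM (log2FC 3.97 ± 0.22). For each of these 5 genes every IRI 72 h library lay above every Control library, as for 3449 of all 16654 genes tested. Mt2, a metallothionein that binds zinc and copper and has a close copy in Mt1, which was left out, had 884, 750, 762 and 671 counts at 72 h and 1, 11, 2 and 16 counts in Control (log2FC 8.29 ± 0.83, adjusted p = 1.6e-08). The AP-1 letters TGANTCA stood on either strand in 4 of 21 promoter windows of this list (19.0%), beside 6.88% of the windows of genes tested.

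Compared with 24 h, more of these injury genes were lower than higher at 72 h, with 13 of the 32 lower and 3 higher. Spp1, the matrix and cytokine protein osteopontin, was at 5670.1, 3986, 5814 and 3743 CPM at 72 h, against 1419, 876, 833 and 1379.7 CPM in Control (log2FC 2.09 ± 0.25), and averaged 17736 ± 3116 CPM at 24 h (log2FC for 72 over 24 h -1.88 ± 0.25, adjusted p = 7.0e-06). Krt20, a keratin of damaged tubules, averaged 32.95 ± 14.5 CPM at 72 h, 214 ± 58.1 CPM at 24 h and 9.48 ± 5.097 CPM in Control. Its rise over Control (log2FC 1.79 ± 0.56, adjusted p = 0.009) did not pass with a spread for each group (adjusted p = 0.13 in limma) or without the libraries with adrenal genes (adjusted p = 0.055). Clu, the chaperone clusterin, averaged 599 ± 125 CPM at 72 h, 4088 ± 1163 CPM at 24 h and 380.3 ± 16.7 CPM in Control. Its adjusted p of 0.044 against Control was lost on leaving out any one of 7 of the 8 libraries, IRI 72 h library 4 being the exception. Against sham_control the log2FC of Clu was 1.89 ± 0.27 (adjusted p = 1.7e-06) and that of Krt20 4.03 ± 0.64.

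Matrix and stromal genes were higher at 72 h in 15 of 27 cases, with 3 falls (median log2FC 1.27). Col1a1, a chain of type I collagen, was at 235, 307, 229.9 and 308 CPM at 72 h, against 90.1, 72.6, 73.7 and 89.9 CPM in Control (log2FC 1.73 ± 0.19, adjusted p = 7.0e-08). Vim, the mesenchymal filament vimentin, averaged 509 ± 41.7 and 71.8 ± 11.2 CPM (log2FC 2.83 ± 0.18), and Acta2, the smooth muscle actin of pericytes, vessels and myofibroblasts, 356 ± 26.7 and 67.4 ± 2.14 CPM (log2FC 2.399 ± 0.34). Lox, the collagen-crosslinking lysyl oxidase, averaged 59.9 ± 15.8 and 7.68 ± 1.17 CPM (log2FC 2.96 ± 0.39), and Thy1, a fibroblast surface protein, 31.3 ± 12.8 and 3.61 ± 0.944 CPM (log2FC 3.11 ± 0.44). Ren1, renin of the juxtaglomerular cells, fell to 12.04 ± 4.56 CPM at 72 h, against 66.8 ± 4.01 CPM in Control (log2FC -2.47 ± 0.28, adjusted p = 1.2e-07). The other smooth and skeletal muscle genes Actg2, Cnn1, Des and Myh11 were called higher too, with a summed muscle level of 494 to 563 CPM at 72 h and 138 to 162 CPM in Control, and their part in the rise of Acta2 was not tested. Against sham_control 2 of the 7 muscle genes were higher.

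**Figure D4:**
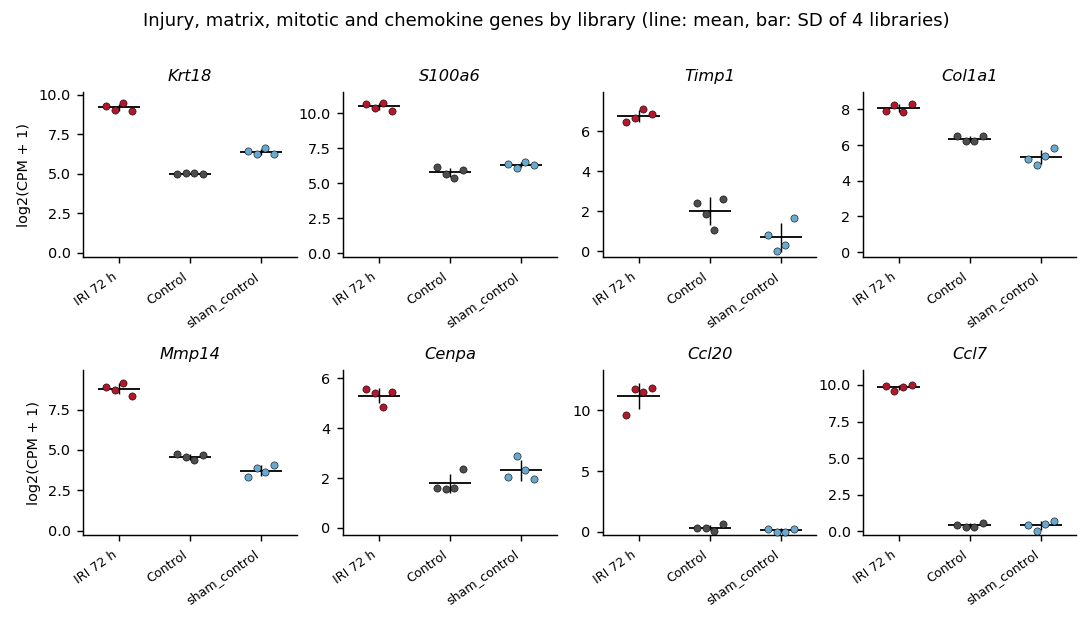
Log2(CPM + 1) (y axis) of 8 genes higher at 72 h in each of 4 libraries of IRI 72 h, Control and sham_control (x axis), with the mean as a line and the SD as a bar. In each panel all 4 IRI 72 h libraries lie above all Control and sham_control libraries, and Ccl20 and Ccl7 are near 0 in both groups without surgery.

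Among metalloproteinases and their inhibitors, 5 of 20 tested of 21 rose and 5 fell, and 3 fell without the libraries with adrenal genes. These shares are near those of all genes tested, 26.7% higher and 29.6% lower. Mmp14, the membrane-anchored collagenase MT1-MMP, was at 473, 423, 576 and 326 CPM at 72 h, against 25.5, 22.2, 19.4 and 25.3 CPM in Control (log2FC 4.28 ± 0.24, adjusted p = 1.9e-12). Timp3, the matrix-bound inhibitor, was at 72.4, 83.2, 61.04 and 78.6 CPM, against 1075, 1384, 1567 and 1125 CPM (log2FC -4.12 ± 0.21, adjusted p = 5.9e-13), opposite to Timp1. Mmp13, an interstitial collagenase, had 0 counts in each IRI 72 h library and 39, 37, 27 and 37 in Control libraries, at least 14.86-fold lower. In the TGF-beta list, 6 of 24 genes rose and 8 fell, again near the shares of all genes. Against sham_control 11 were higher, beside 19.3% of all genes tested there. Pdgfa, a ligand for fibroblasts, rose (log2FC 2.57 ± 0.200), and Bmp7, a morphogen of the distal nephron that opposes TGF-beta, fell to 11.2 ± 1.92 CPM at 72 h, against 73.2 ± 6.503 CPM in Control (log2FC -2.71 ± 0.26, adjusted p = 9.3e-09). Tgfb1 itself was at 43.5, 47.8, 44.8 and 25.9 CPM at 72 h and 29.9, 28.6, 25.2 and 31.7 CPM in Control, ranges that overlap. Its adjusted p of 0.046 was lost in limma (0.14) and on leaving out any one of 7 of the 8 libraries, IRI 72 h library 4 being the exception. Against sham_control its log2FC was 1.59 ± 0.22 (adjusted p = 9.9e-07).

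Genes of mitosis were mostly higher. Of 29 tested cell cycle genes of 30 listed, 18 rose and 0 fell against Control (median log2FC 1.65), and 27 were higher against sham_control (median 2.76). With a spread for each group in limma, 10 rose against Control. Mki67 was left out for disagreeing counts. Cenpa, the histone variant that marks centromeres, was at 46.4, 41.2, 27.8 and 42.3 CPM at 72 h, against 2.04, 1.97, 2.07 and 4.19 CPM in Control (log2FC 3.94 ± 0.42, adjusted p = 4.8e-08). Plk1, the kinase that drives mitotic entry and exit, was at 59.3, 26.04, 10.2 and 30.1 CPM, against 3.69, 2.18, 2.35 and 3.14 CPM (log2FC 3.46 ± 0.504, adjusted p = 4.0e-06). The 2 groups did not overlap for either gene, as for 51.9% of all genes tested, although the IRI 72 h libraries of Plk1 were widely spread. Cenpe, a kinetochore motor, and Birc5, the survivin of the chromosomal passenger complex, gave log2FC of 3.13 ± 0.51 and 2.91 ± 0.46. Pcna, the sliding clamp of DNA replication, was at 33.04, 43.7, 21.6 and 49.9 CPM at 72 h and 34.2, 31.4, 33.3 and 40.4 CPM in Control, which did not pass the test (adjusted p = 0.74). From 24 to 72 h, Cenpa (log2FC 2.87 ± 0.41) and Plk1 (2.401 ± 0.48) were higher while Pcna was lower (-0.96 ± 0.204, adjusted p = 0.001).

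Promoters of mitotic genes often pair CCAAT boxes with a cell cycle homology region near the start. In the promoter windows, CCAAT stood on either strand in 19 of 23 cell cycle genes (82.6%) and TTTGAA in 11 of 23 (47.8%), beside 42.3% and 14.9% of genes tested. The 250 bases before the start are printed for the mitotic genes with the largest log2FC, Cenpa (chr5:30666636-30666885, plus strand) and Plk1 (chr7:122159185-122159434, plus strand), with CCAAT or its reverse complement in capitals. Their TTTGAA matches lie in the 50 bases after the start, outside the stretch printed.
Cenpa: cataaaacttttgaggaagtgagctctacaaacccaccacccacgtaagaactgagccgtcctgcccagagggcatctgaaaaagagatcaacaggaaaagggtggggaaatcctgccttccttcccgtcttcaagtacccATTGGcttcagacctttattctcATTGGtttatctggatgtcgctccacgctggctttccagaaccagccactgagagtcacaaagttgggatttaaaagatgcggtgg
Plk1: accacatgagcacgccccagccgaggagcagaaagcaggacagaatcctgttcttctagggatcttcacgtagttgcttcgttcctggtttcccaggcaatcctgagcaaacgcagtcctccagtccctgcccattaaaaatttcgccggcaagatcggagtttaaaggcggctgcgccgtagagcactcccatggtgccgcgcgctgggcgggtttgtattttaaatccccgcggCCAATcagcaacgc
The Cenpa stretch holds 2 CCAAT boxes and the Plk1 stretch 1.

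Of 20 tested p53 targets and growth arrest genes of 21 listed, 10 rose and 2 fell, and without the libraries with adrenal genes 7 rose. Cdkn1a, the cyclin-dependent kinase inhibitor p21, was at 108, 90.6, 83.05 and 56.7 CPM at 72 h, against 21.8, 11.3, 21.6 and 20.1 CPM in Control (log2FC 2.18 ± 0.42, adjusted p = 1.4e-04). Gdf15, a stress-secreted cytokine, averaged 78.8 ± 17.5 CPM at 72 h and 15.8 ± 1.27 CPM in Control (log2FC 2.32 ± 0.34), and 213 ± 28.1 CPM at 24 h.

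Chemokine genes held 4 of the 15 largest rises among called genes (Ccl20, Ccl7, Cxcl3 and Cxcl9). In all, 11 of 21 tested chemokine and cytokine genes of 32 listed rose and 4 fell, beside 26.7% higher and 29.6% lower among all genes tested. Ccl2, Il6 and Il1b were left out for disagreeing or repeated counts, and 4 members were not tested. Genes very low in Control can pass the low-count filter through the groups where they are high. The share of rises may therefore be raised by the filter. Ccl20, the ligand of the lymphocyte and dendritic cell receptor CCR6, had 3567, 16553, 14519 and 15656 counts in IRI 72 h libraries 1 to 4 and 4, 3, 1 and 8 counts in Control libraries. These are 781, 3394, 2906 and 3683 CPM and 0.255, 0.211, 0.0692 and 0.558 CPM, a log2FC of 13.21 ± 0.66 (adjusted p = 3.8e-13), with library 1 the lowest of the IRI 72 h libraries. Ccl7, a monocyte attractant, had 4538, 3723, 4630 and 4318 counts at 72 h and 5, 3, 3 and 7 counts in Control (log2FC 11.502 ± 0.38, adjusted p = 1.2e-15). Both were absent or low at 24 h, where Ccl20 averaged 0.891 ± 0.788 CPM and Ccl7 5.99 ± 1.65 CPM, and high at 48 h, where they averaged 1827 ± 202 and 1527 ± 548 CPM. Cxcl9, an interferon-induced T cell attractant, was at 276, 284, 635 and 663 CPM at 72 h, against 2.86, 1.899, 2.42 and 6.21 CPM in Control (log2FC 7.11 ± 1.07, adjusted p = 6.0e-06).

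Leukocyte genes were divided. Of 31 macrophage and monocyte genes tested of 32 listed, 11 rose and 7 fell, beside 26.7% higher and 29.6% lower among all genes tested. Arg1, an arginase of repair-type macrophages, was at 31.1, 18.7, 25.2 and 24.9 CPM at 72 h, against 1.02, 0.281, 0.0692 and 1.396 CPM in Control (log2FC 5.15 ± 0.77, adjusted p = 5.4e-06), and averaged 5.91 ± 2.77 CPM at 24 h. Cd68, a lysosomal protein of phagocytes, averaged 25.5 ± 5.702 and 4.12 ± 0.187 CPM (log2FC 2.63 ± 0.22). C1qa, a complement protein made by resident macrophages, did not pass, at 18.8, 21.1, 34.8 and 19.5 CPM at 72 h and 31.7, 27.3, 25.03 and 28.3 CPM in Control, and against sham_control it was higher (log2FC 0.83 ± 0.27, adjusted p = 0.015). Neutrophil genes were higher in 7 of 8 tested of 15 listed, beside 26.7% of all genes tested. Levels were low, with a sum of 34.4 to 45.5 CPM at 72 h and 4.43 to 7.54 CPM in Control. Of the rest, 6 were not tested. Genes this low can pass the low-count filter through the groups where they are high, so the share of rises may be raised by the filter. With a spread for each group 1 of the 8 was called, and without the libraries with adrenal genes 4 were. S100a8, a calprotectin subunit, was at 17.5, 4.51, 11.2 and 6.82 CPM at 72 h, against 0.764, 0.211, 0.8298 and 1.47 CPM in Control (adjusted p = 3.1e-04, and 0.058 in limma). Of 26 genes of T, NK and B cells, 10 were tested, of which 3 fell and 1 rose.

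Antigen presentation genes were mostly lower. Of 16 genes, 10 fell and 3 rose, or 8 and 1 without the libraries with adrenal genes (median log2FC -0.85). H2-Ab1, a class II chain that presents peptides to helper T cells, was at 1.75, 3.896, 0 and 1.41 CPM at 72 h, against 93.9, 106, 108 and 86.8 CPM in Control (log2FC -5.79 ± 0.48, adjusted p = 7.4e-10). H2-Eb1, another class II chain, averaged 2.49 ± 1.53 and 97.5 ± 5.24 CPM (log2FC -5.295 ± 0.42). Cd74, the invariant chain that guides class II molecules, was at 9.85, 32.2, 13.4 and 6.82 CPM, against 192, 223, 239 and 208 CPM (log2FC -3.78 ± 0.42). B2m, the light chain of class I molecules, was at 114, 111, 104 and 111 CPM, against 343, 332, 327 and 335 CPM (log2FC -1.603 ± 0.14, adjusted p = 1.6e-09). In these 4 genes no IRI 72 h library reached a Control library, as for 5189 of all 16654 genes tested. All 4 were also lower against sham_control, with log2FC between -5.11 and -2.09. Complement and acute phase genes fell in 6 of 21 cases and rose in 2, and against 24 h 11 were lower and 0 higher. Among all genes tested 29.6% fell against Control and 18.3% were lower than at 24 h. C3, the central complement protein, did not pass against Control (log2FC -0.43 ± 0.31, adjusted p = 0.26) or sham_control, where its sign was the opposite (log2FC 0.33 ± 0.31, adjusted p = 0.4), and Cfb, factor B of the alternative pathway, had 0 counts in each IRI 72 h library and 302, 327, 379 and 272 in Control libraries, at least 136.2-fold lower than Control and at least 11.43-fold lower than sham_control.

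Interferon-stimulated genes gave 7 rises and 4 falls among 22 against Control, beside 26.7% and 29.6% of all genes tested. They gave 1 rise and 3 falls against sham_control, and limma gave 2 of each against Control. Oas2, a sensor of double-stranded RNA, rose to 40.04, 36.1, 46.6 and 35.3 CPM at 72 h, against 1.78, 1.196, 1.87 and 0.907 CPM in Control (log2FC 4.77 ± 0.43, adjusted p = 3.1e-09). Stat2, a factor that carries the interferon signal, rose (log2FC 1.73 ± 0.16, adjusted p = 5.8e-09). Stat2 averaged 56.3 ± 3.99 CPM at 72 h and 47.6 ± 7.98 CPM in sham_control and did not pass there (adjusted p = 0.2).

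Stress genes were active in part. Immediate early genes rose in 15 of 21 tested of 22 listed and fell in 1 (median log2FC 1.505), with 9 rises in limma. Atf3, a stress-induced transcription factor, was at 24.3, 37.7, 14.2 and 49.4 CPM at 72 h, against 3.18, 2.39, 2.56 and 3.21 CPM in Control (log2FC 3.46 ± 0.37, adjusted p = 4.6e-08), and Myc, a growth-promoting factor, averaged 33.4 ± 10.1 and 5.69 ± 1.098 CPM (log2FC 2.55 ± 0.28). In the ATF4 and unfolded protein response list, 10 of 22 tested of 23 rose and 9 fell, with 4 rises without the libraries with adrenal genes. Ddit3, the pro-apoptotic factor CHOP, rose to 42.6 ± 10.4 CPM at 72 h, against 9.61 ± 1.37 CPM in Control (log2FC 2.14 ± 0.22). Of NRF2 and redox genes, 10 of 23 tested of 27 fell and 4 rose, and 2 rose without the libraries with adrenal genes. Hmox1, haem oxygenase 1, was at 85.99, 179.8, 103 and 135 CPM at 72 h, against 31.6, 33.5, 39.7 and 38.9 CPM in Control (log2FC 1.81 ± 0.39, adjusted p = 4.0e-04), and did not pass without the libraries with adrenal genes (adjusted p = 0.067).

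Ribosomal protein genes moved together. All 34 tested cytosolic ribosomal protein genes rose against Control (median log2FC 1.303) and 32 were higher against sham_control. Rps15 was at 1466, 1211, 1452 and 1391 CPM at 72 h, against 397, 355, 332 and 347 CPM in Control (log2FC 1.95 ± 0.15, adjusted p = 4.0e-10), and Rpl28 averaged 1258 ± 162 and 333 ± 18.6 CPM (log2FC 1.92 ± 0.16). These genes have near-identical pseudogene copies, so that their counts are uncertain. Transcript length moved with the direction of change. The median log2FC was 0.83 for 1475 genes whose longest transcript was under 1000 bases, 0.13 from 1000 to 2000 bases, -0.09 from 2000 to 4000, -0.27 from 4000 to 8000 and -0.33 above 8000. The ribosomal protein genes had a median length of 1100.0 bases, and the part of length in their rise was not tested. Nuclear oxidative phosphorylation genes had a median length of 1232 bases and a median log2FC of -0.71, and the part of length was not tested there either. Proteasome genes, with a median of 1705 bases, fell in 15 of 26 cases and rose in 3 against Control, and against sham_control 6 fell and 4 rose. Psmb7, a catalytic subunit, averaged 43.7 ± 17.8 CPM at 72 h, 118 ± 6.53 CPM in Control (adjusted p = 1.0e-04) and 32.4 ± 6.63 CPM in sham_control (adjusted p = 0.18), and its sign turned. Psmd4, a ubiquitin receptor of the proteasome, rose (log2FC 1.13 ± 0.16, adjusted p = 2.1e-06). Of 17 reference genes in common use tested of 18, 8 fell and 3 rose. Actb, the beta-actin gene and 1 of those that rose, was at 1968, 1784, 1904 and 1675 CPM at 72 h, against 748, 751, 789 and 732 CPM in Control (log2FC 1.28 ± 0.17, adjusted p = 7.3e-07).

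A few names took large shares of the analysed counts at 72 h. Cep85, a centrosomal protein gene, had 509287, 668142, 505341 and 597711 counts at 72 h, against 2009, 1866, 1707 and 2023 counts in Control (log2FC 9.88 ± 0.51, adjusted p = 5.4e-13), and averaged 9395 ± 87.6 CPM at 24 h. Chd9, a chromatin remodeller gene, was at 13118, 15171, 8223 and 16168 CPM, against 63.2, 64.9, 58.2 and 52.4 CPM (log2FC 7.79 ± 0.68). Of the names analysed, 9 took over 1% of the analysed counts of an IRI 72 h library, among them Gm43305 at up to 4.21%, Rn18s-rs5 at up to 1.44% and Gpx3, the plasma glutathione peroxidase, at up to 5.28%. Gpx3 did not pass the test (log2FC 0.46 ± 0.24, adjusted p = 0.1).

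Against sham_control, some of the genes described changed by other amounts, and 9 of 105 called genes did not pass, namely Umod, Vwf, Ppara, Tfam, Stat2, Idi1, Psmb7, Chga and Th. The log2FC was smaller in size by over 1.5 times for 26 of the called genes. Among them were Slc7a13 (-2.39), Podxl (-1.02), Fbp1 (-1.24), Ren1 (-1.56) and Timp3 (-2.18), which were lower, and Sox17 (2.08), Pdgfa (1.54), Oas2 (2.82), Ddit3 (1.05), Rpl28 (0.91), mt-Rnr1 (2.46), mt-Rnr2 (2.39) and Meg3 (2.19), which were higher. It was larger by over 1.5 times for 9, among them Trak2 (3.05), Sox9 (6.49), Col1a1 (2.74), Cdkn1a (3.41) and S100a8 (6.27).

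Compared with 24 h, the 72 h kidney differed in 5105 of 16654 genes (30.7%), 2062 higher (12.4%) and 3043 lower (18.3%), and both groups stand in the same joined block. In low-count structure the 24 h libraries differed from the 72 h ones much as Control did, and the part of this in the count was not tested. Tubule genes of the ascending limb were partly higher at 72 h, with 7 of 19 higher and 4 lower. Slc12a1 averaged 363 ± 23.1 CPM at 72 h and 61.7 ± 1.13 CPM at 24 h (log2FC 2.56 ± 0.305, adjusted p = 1.6e-06), and Egf 40.5 ± 14.2 and 11.3 ± 1.36 CPM (log2FC 1.84 ± 0.28, adjusted p = 3.4e-05). Stromal genes were higher in 9 of 27 cases and lower in 2. Col1a1 averaged 270.0 ± 43.5 and 79.2 ± 20.1 CPM (log2FC 1.77 ± 0.19, adjusted p = 4.8e-07), and Mmp14 449.5 ± 104 and 76.8 ± 19.7 CPM (log2FC 2.55 ± 0.22). Nuclear oxidative phosphorylation genes were lower in 36 of 52 cases with 0 higher, and proteasome genes lower in 20 of 26 with 0 higher. The 72 h group is shared by these comparisons and those with Control.

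**Figure D5:**
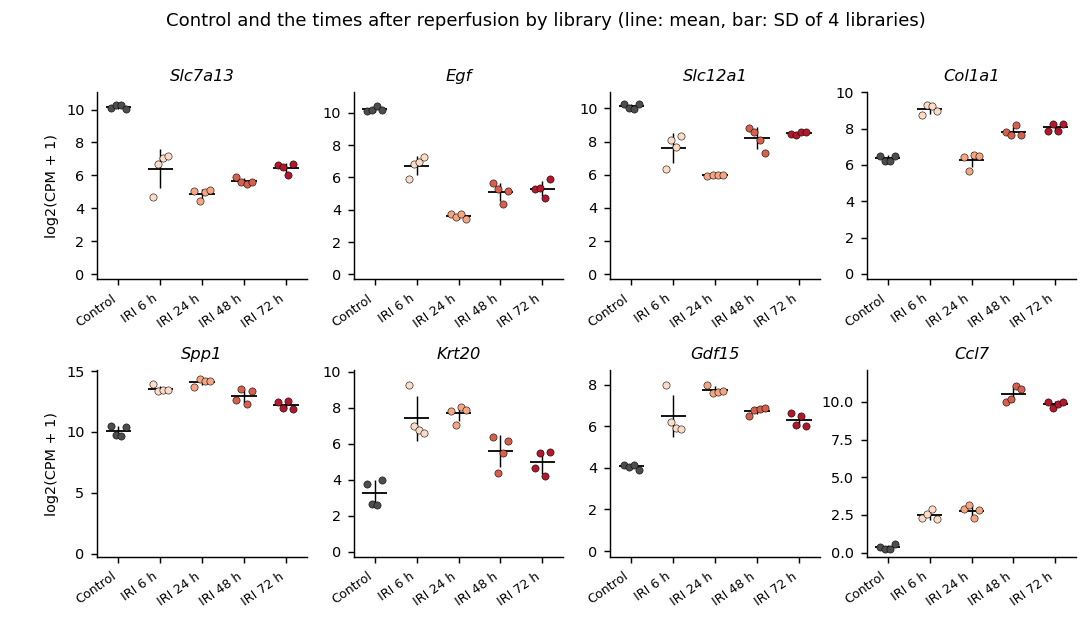
Log2(CPM + 1) (y axis) of 8 genes in each of 4 libraries of Control and of 6, 24, 48 and 72 h after reperfusion (x axis), with the mean as a line and the SD as a bar. At 72 h Slc7a13, Egf, Slc12a1 and Col1a1 lie above 24 h, Spp1, Krt20 and Gdf15 lie below it, and Ccl7 is low at 6 and 24 h and high at 48 and 72 h.

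Compared with 48 h, fewer genes were called. The 48 h libraries had a low-count structure near that of the 72 h ones, with a median coefficient of variation of 45.1% for genes of 5 to 20 CPM, against 52.2% at 72 h and 18.3% at 24 h, and its part in the count was not tested. The test with a spread shared by 5 groups called 945 genes (5.67%), 340 higher (2.04%) and 605 lower (3.63%). The fit of these 2 groups alone called 24 of 14480 (0.166%), 20 higher (0.138%) and 4 lower (0.0276%), and limma with a spread for each group called 3 higher (0.018%) and 0 lower, with 647 higher and 830 lower at an unadjusted p under 0.05 in limma. Slc5a2 was at 1.75, 5.13, 2.802 and 2.59 CPM at 72 h and 73.6, 5.71, 90.5 and 23.4 CPM at 48 h (log2FC -3.97 ± 0.56, adjusted p = 7.1e-04, and 0.016 in the fit of 2 groups). Slc12a3 was at 38.5, 8.201, 27.02 and 31.8 CPM at 72 h and 223, 53.6, 319 and 79.8 CPM at 48 h (log2FC -2.68 ± 0.43, adjusted p = 0.0014). For both genes each IRI 72 h library lay below each 48 h library, and the 48 h libraries were widely spread. Mmp11, a stromal metalloproteinase, was at 15.1, 24.2, 26.02 and 12.9 CPM at 72 h and 5.78, 3.68, 5.401 and 2.26 CPM at 48 h (log2FC 2.18 ± 0.37, adjusted p = 0.0024), with 6.302, 6.402, 6.29 and 6.42 CPM in Control. Npy, a neuropeptide also made in adrenal medulla, was at 29.5, 107, 47.8 and 103 CPM at 72 h and 2.501, 12.5, 0 and 2.78 CPM at 48 h (log2FC 4.05 ± 0.78), and was highest in the 2 libraries with adrenal genes. The same held for Meg3, a long non-coding RNA, at 87.7, 211, 45.6 and 236 CPM at 72 h and 5.78, 18.2, 14.9 and 30.7 CPM at 48 h. All 8 adrenal genes tested, of 10 listed, were called higher at 72 h than at 48 h. Chga and Th had 0 counts in each 48 h library, so they passed the low-count filter only through other groups. Genes absent at 48 h can only be called higher, so the count of 8 is set in part by the filter. Without the libraries with adrenal genes, 467 genes were called in this comparison.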

How the data were processed

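Whole-number read counts per gene name were used as the authors deposited them. Per the submitters' processing notes, HTSeq and DESeq2 were used with the mm39 (GRCm39) build. The aligner and the use of strand are not given in the sources used here, so genes that overlap on opposite strands cannot be told apart. RNA was extracted with the RNeasy mini kit and libraries followed Illumina protocols, per the labels' protocols.

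The temporal table held 258137 lines that repeat names. Identical lines were counted once and different lines of a name were summed within each joined block, which left 55862 names. Several gene IDs stood under each of 77 names. Control counts were compared with those of the same libraries in the therapy table. Left out were 84 names: 74 had different counts, 6 stood in 1 table, 3 shared their counts with another name and 1 was repeated with other counts. For 52 of the 74, the temporal table's Control counts stand under another name in the therapy table. In all, 55783 names were kept. The names left out made up 38.7 to 41.7% of an IRI 72 h library and 16.5 to 19.6% of a Control library.

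All 5 groups, of 4 libraries each, entered 1 model in edgeR 4.0.16 under R 4.3.3 (filterByExpr, TMM, quasi-likelihood test, two-sided, Benjamini-Hochberg adjustment over all genes, threshold 0.05). The SE is the log2 fold change over the square root of F. CPM are TMM-scaled. Floors of 3 counts cover counting error only. The code was tested on simulated counts.

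Members, lists and alternatives were chosen with earlier results of these data known, and lists are described by counts and medians alone. Names in the text follow a rule. They are the 15 largest rises and falls among called genes, given a log2 CPM of 3 or more on average, separate ranges and an assigned symbol (6 each against 48 h). Up to 6 called and 3 uncalled members of a list, 45 sentinel genes and names over 1% of the counts analysed were added. Genes named as left out, Gm43305 and Rn18s-rs5 carry no test. Some genes the rule names are not reported here. Promoter sequences are RefSeq's, on GRCm38.p6, matched by symbol.

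Alternatives were DESeq2 1.42.0, its size factors in edgeR, no low-count filter, a fit of the 2 groups alone, a replicate block, disagreeing names kept, names over 1% removed, libraries thinned to equal depth, sham_control in place of Control, and each library left out. Added after seeing the data were limma 3.58.1 with weights per group and a fit without IRI 72 h libraries 2 and 4 and Control libraries 1 and 4. Python 3.11.15, pandas 2.3.3 and matplotlib 3.10.9 were used for tables and plots.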

Additional observations from a re-analysis of the deposited data

Results flagged for a closer look

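Among the 112 genes screened, 224 groups of 4 libraries were screened for 1 library far from the others by Dixon's criterion, and 12 were picked out, where chance picks about 1 in 20. At 72 h, library 4 stood apart for Idi1 (18.6 CPM, with 4.31 to 6.60 in the others). Library 3 stood apart for C1qa (34.8 CPM) and Ddit3 (27.02 CPM), library 2 for H2-Eb1 (0.205 CPM), and library 1 for Mt2 (193 CPM), Nos3 (109.6 CPM) and Ppargc1a (9.19 CPM). In Control, library 2 stood apart for Cdkn1a (11.3 CPM), library 3 for Egf (1378 CPM) and Mmp13 (1.87 CPM), and library 4 for Cenpa (4.19 CPM) and Pvalb (22.3 CPM). Each of these genes that was called against Control kept its log2FC within 1.5 times without the library named. C1qa, which was not called, went from a log2FC of -0.251 to -0.541 without IRI 72 h library 3 and passed in neither.

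The level at 72 h differed from that at 48 h, in the fit of 5 groups and in that of 2, for 8 of the named genes. The log2FC for 72 over 48 h was 4.22 for Erdr1, a name of the pseudoautosomal region, whose counts were 798, 771, 1020 and 658 at 72 h and whose level was 26.3, 0, 7.38 and 2.95 CPM at 48 h. It was 0.79 for mt-Nd6, -3.97 for Slc5a2 and -2.68 for Slc12a3. It was 14.04 for Chga, 11.35 for Th, 4.05 for Npy and 3.06 for Meg3, and these 4 were highest in IRI 72 h libraries 2 and 4. Chga and Th had 0 counts in each 48 h library, so their fitted values are no bounds.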

How the results depend on the processing

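As a count, the 9374 calls of 72 h against Control stayed within 1.5 times under all 19 alternatives. The range was 7793 without the libraries with adrenal genes to 10726 without a filter on low counts, and 8614 to 9820 with 1 library left out. The number of genes tested differed between settings, so these counts are not shares of 1 total. The share called was 56.3% of 16654 genes in the main fit, 52.5% of 14938 with only the 2 groups fitted and 47% of 18445 with sham_control. Without a filter many more genes were tested, so the share called fell although the count rose. Of 112 named genes, 95 kept their direction and side of the threshold under every alternative run. Scaling by DESeq2 size factors within edgeR gave a median log2FC over all genes of 0.09, against -0.04 with TMM, and limma with a spread per group gave -0.30. With sham_control in place of Control the log2FC turned sign for C1qa (0.826), Idi1 (0.486) and Psmb7 (0.437), and for C3 (0.33), which passed in neither. Of the called genes 9 did not pass, Idi1 and Psmb7 among them, and Aqp2 passed.

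The comparison with 48 h was the least stable. Its 945 calls (340 higher, 605 lower) became 1704 (751 and 953) with DESeq2, 24 (20 and 4) with only the 2 groups fitted, 499 (175 and 324) with the replicate block, 402 (141 and 261) with thinned libraries, 3 (3 and 0) with limma, and 467 (163 and 304) without the libraries with adrenal genes. Leaving out 1 library gave 849 to 1351 calls, 315 to 547 higher and 530 to 846 lower, and the 547 came without the 48 h library 2. Against 24 h, 3043 lower genes became 1966 with only the 2 groups fitted. The causes were not tested. Fits that leave libraries out hold fewer libraries and also change which genes pass the low-count filter.

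With the replicate block 9022 genes were called against Control. Same-numbered libraries did not deviate together (r between -0.019 and 0.021). This cannot exclude a pairing, since scatter among the IRI 72 h libraries was wide (r = 0.794 to 0.822) and could hide it. Depth at 72 h, 4642943 to 5368674 counts, limits statements on low genes.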
